A study of Mus musculus with 30 samples.

Results

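MEIS and PBX cofactors of HOXA9 were examined through 6 genes, Meis1, Meis2, Meis3, Pbx2, Pbx3 and Pknox1, chosen by name from 21627 protein-coding genes (mouse build GRCm38, mm10, without the Y chromosome). The rule for the choice names the genes and uses no measured value, but they were chosen with earlier results of these data known. HOXA9 is a homeodomain transcription factor of blood progenitors that is often overexpressed in acute myeloid leukaemia. MEIS, PKNOX and PBX proteins belong to the TALE class of homeodomain proteins, named for a loop extension of the homeodomain, and they bind DNA in complexes with HOX proteins. MEIS1 and PBX3 are the partners most studied beside HOXA9 in leukaemia, while PKNOX1 is a MEIS-related protein that also pairs with PBX.

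The mouse cells (C57BL/6 strain) were cultured in medium with stem cell factor. ER-Hoxa9-Lys-GFP cells carry, by their name, an estrogen receptor fusion of HOXA9, a design in which the protein is active while estradiol (E2) is present. They were kept in E2, kept without E2 for 120 h, or kept without E2 for 24, 40 or 72 h and then given E2 again for 96, 80 or 48 h. For these 5 conditions, chromatin immunoprecipitation with sequencing (ChIP-seq) gave lists of peaks of H3K4me3, the histone mark of active promoters. Sites of tagged HOXA9 came from V5-Hoxa9-AM cells without treatment and from cells with the estrogen receptor fusion, V5-ER-Hoxa9-AM, in E2 or returned to E2 for 48 h following 72 h of withdrawal. The lists used here were V5 and AM for V5-Hoxa9-AM cells, and V5 in both conditions and AM in E2 for V5-ER-Hoxa9-AM cells. Both AM samples carry V5 as their antibody label. The promoter of each construct and the number of clones in a line are not given in the sources used here. Below, 24, 40 and 72 h mean the time without E2 before E2 was restored, and 120 h means withdrawal with no restoration. Time without E2 and time after its return add up to the same total, so their effects cannot be told apart.

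Each condition had 1 library, so no difference has a replicate check and no p-value is given. The lists hold coordinates only, read depth is unknown, and the measure was the number of base pairs (bp) under peaks. H3K4me3 lists held 17497 to 23835 peaks and grew in total covered length, to 1.37 times after 24 h, 1.44 after 40 h, 1.55 after 72 h and 1.67 after 120 h relative to E2. The part of this growth in the values of single genes was not tested, and values divided by the total of the list are given beside the main ones. Site lists held 17006 (V5, V5-Hoxa9-AM), 6773 (AM, V5-Hoxa9-AM), 1417 (V5, V5-ER-Hoxa9-AM in E2), 387 (the same after 72 h) and 258 sites (AM, V5-ER-Hoxa9-AM in E2). Sites that overlapped between V5 and AM lists had the same start and end in each: 6195 of 6195 for V5 and AM in V5-Hoxa9-AM cells, and 1079 of 1079 for V5 in E2 in V5-ER-Hoxa9-AM cells set against V5-Hoxa9-AM cells. The site lists thus draw on a common set of regions, so a site's edges and width are not a separate measurement in each library, and presence in several lists may not be independent. H3K4me3 lists shared at most 1 peak with the same edges. The labels name no cell type. All 7 markers of myeloid progenitors (among them Kit, Cd34, Flt3 and Mpo) had H3K4me3 in every list, and 4 of the 7 were at least 1.5-fold lower after 120 h than in E2 (median log2 ratio -0.81, with 50 bp added to each length), or 7 of 7 when divided by the total of the list, where 2.29% and 21.3% of all genes were lower. Of 7 neutrophil markers 0 had it in E2 and 6 after 120 h, and of 5 monocyte and macrophage markers 0 and 5. The marker lists of other cells held 3 genes each: in E2 and after 120 h the number marked was 0 and 1 for B cells, 0 and 1 for T cells, 1 and 1 for erythroid cells, and 0 and 1 for fibroblasts, beside 47.1% and 53.2% of all genes. The part of this shift in the values below was not tested. The annotation used gives gene extents only, so exons and introns are not named.

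Among the 6 genes, 4 had H3K4me3 in every list and the other 2 in none. Meis1, Pbx2, Pbx3 and Pknox1 carried peaks within the gene or 1 kb on either side, and Meis2 and Meis3 had 0 bp in E2 and at 24, 40, 72 and 120 h. The count of 4 of 6 stands beside a share of all genes of 47.1% in the E2 list, 50.7% in the 24 h list, 50.5% in the 40 h list, 51.4% in the 72 h list and 53.2% in the 120 h list. Genes without a peak in any list numbered 9782 (45.2%).

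**Figure D1:**
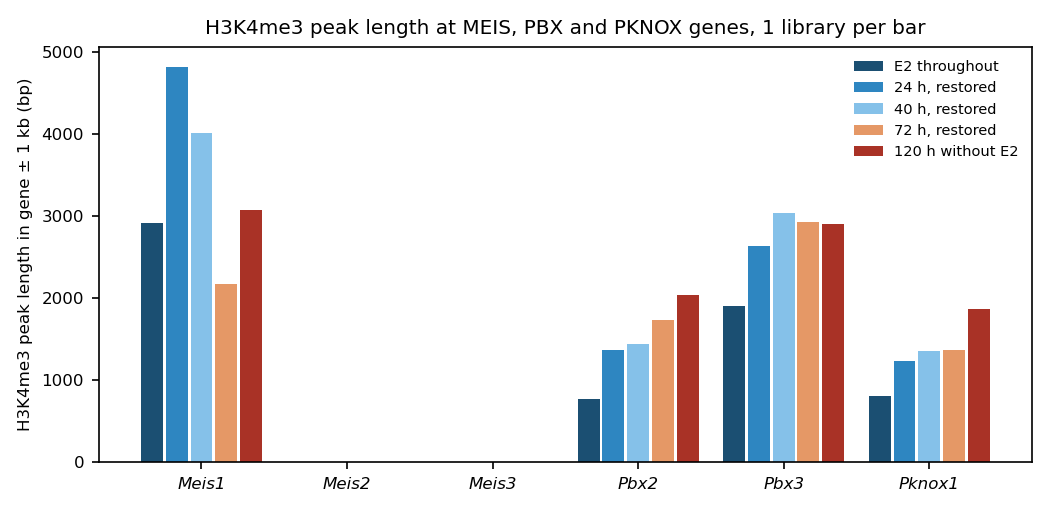
Bars give the H3K4me3 peak length in bp (vertical axis) within each gene and 1 kb on either side in the 5 lists, with 1 library per bar. Meis1 is highest after 24 h (4825 bp), Pbx2 and Pknox1 are highest after 120 h (2046 and 1875 bp), and Meis2 and Meis3 are at 0 bp throughout.

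The sequences at the starts of Meis1 and Pbx2 are shown because the E2 list leaves the start base of both genes outside a peak and the 120 h list covers it. Each runs 5′ to 3′ on the strand of the gene over the 250 bases before the annotated start and the 50 from the start on (RefSeq, GRCm38.p6, with entries for 4 of the 6 genes). Capitals mark the bases under no H3K4me3 peak in E2 but under one after 120 h, which are 132 bases for Meis1 (chr11:19018920-19019219, minus strand) and 120 bases for Pbx2 (chr17:34592009-34592308, plus strand).
Meis1: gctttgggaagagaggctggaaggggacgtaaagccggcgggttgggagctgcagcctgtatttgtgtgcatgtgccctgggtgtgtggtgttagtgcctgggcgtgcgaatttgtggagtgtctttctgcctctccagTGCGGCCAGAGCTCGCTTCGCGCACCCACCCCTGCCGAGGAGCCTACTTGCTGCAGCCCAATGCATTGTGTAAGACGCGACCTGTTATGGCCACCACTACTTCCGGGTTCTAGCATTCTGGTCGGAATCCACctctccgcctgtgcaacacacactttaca
Pbx2: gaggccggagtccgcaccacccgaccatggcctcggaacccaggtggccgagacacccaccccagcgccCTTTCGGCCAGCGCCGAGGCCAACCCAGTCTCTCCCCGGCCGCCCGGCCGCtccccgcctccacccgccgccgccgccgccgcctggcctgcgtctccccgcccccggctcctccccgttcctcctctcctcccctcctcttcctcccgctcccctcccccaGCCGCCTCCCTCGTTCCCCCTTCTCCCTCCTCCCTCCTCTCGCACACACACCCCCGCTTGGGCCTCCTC

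The Meis1 stretch in capitals is 1 unbroken run that holds the start, at 19018969, and reaches upstream. The extent of Meis1 goes further upstream, to 19019651, and that base was under a peak in all 5 lists. In Pbx2 the capitals form 1 run upstream and 1 run from shortly before the start, at 34592259, to the end of the window. The GC content was 58.3% for Meis1 and 76.0% for Pbx2, with 15 and 29 CG dinucleotides. For the genes without peaks it was 51.0% for Meis2 (13 CG) and 66.7% for Meis3 (21 CG), beside a median of 53.0% and 7 CG over 32619 promoters of the table. The table had no entry for Pbx3 or Pknox1.

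Binding motifs of the family were searched on both strands of these 4 windows. TGACAG, the core bound by MEIS and PKNOX proteins, had no match in the 4 windows and was in 18.9% of all promoters. TGATTNAT, a composite bound by PBX with a HOX protein, had no match either, against 3.24% of all promoters, nor had TGATTGAC (0.776%) or TGATTGAT (0.751%), which is also a case of TGATTNAT. TTTATNG, with a HOXA9-like core, was found in Meis2 only, 213 bases before the start, and in 10.9% of all promoters. A missing match says only that these letters are not in a window of 300 bases.

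Meis1 encodes the TALE partner that binds DNA beside HOXA9, and its gene lies on chromosome 11 from 18880428 to 19019651 (139224 bp, gene 17268). Its total peak length was 2923 bp in E2, 4825 bp after 24 h, 4016 bp after 40 h, 2180 bp after 72 h and 3077 bp after 120 h. The early restored lists were thus the highest and 72 h was the lowest. The log2 ratio to E2, with 50 bp added to each length, was 0.71 after 24 h, 0.45 after 40 h, -0.42 after 72 h and 0.07 after 120 h. Divided by the total length of each list, the same ratios were 0.26, -0.06, -1.03 and -0.65, so that Meis1 was more than 1.5-fold lower than E2 at 72 and 120 h on that scale. After 120 h the direction of Meis1 turned with the window: its log2 ratio was 0.93 within 1 kb of the gene ends, past 1.5-fold, and -0.29 in the gene body alone. It was -0.15 with lists of equal length and -0.27 with peaks within 1 kb joined.

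Stretches within the gene differed in opposite directions. Peaks of the 5 lists, joined where they lay within 1 kb and cut at 1 kb outside the gene, formed 4 elements in Meis1. Only the element at the start was present in every list. It spanned 19016849 to 19020651, which is the cut. Peaks in E2 and at 40, 72 and 120 h ran on past the cut, as far as 19020999 at 40 h, and those parts are not counted. Within the span the element held 1896 bp of peaks in E2, 2352 bp after 24 h, 2960 bp after 40 h, 1903 bp after 72 h and 2325 bp after 120 h. The highest value was after 40 h, with E2 and 72 h lowest and nearly equal. A long noncoding RNA gene, Gm16141, overlaps part of this element (18989652 to 19018330).

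An element near the 3′ end of Meis1 separated the early from the late conditions. It lay at 18883213 to 18886156, 132.8 kb from the start and 2785 bp inside the end of the gene. Peaks covered 1027 bp of it in E2, 1836 bp after 24 h and 1056 bp after 40 h, and 0 bp after 72 and 120 h. The peak in E2 was a single one of 1027 bp, whereas the 40 h list held 4 narrow peaks of 209 to 317 bp there. Of the 16293 elements that the 5 lists form over the genome, 79 (0.485%) had peaks in E2 and after 24 and 40 h and none after 72 and 120 h. With only the peaks wider than the median of their list, a setting chosen after these values were seen, the element was covered over 1027 bp in E2, 1159 bp after 24 h and 0 bp after 40 h.

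Further inside Meis1, an element 94.4 kb from the start had 637 bp after 24 h, 571 bp after 120 h and 0 bp in the other lists. The last, 77.6 kb from the start, had 277 bp after 72 h and 181 bp after 120 h only. Elements with these patterns made up 1.31% and 3.12% of all elements. All peaks in both were narrow, from 181 to 387 bp, which is below the median width in every H3K4me3 list (493 to 607 bp).

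**Figure D2:**
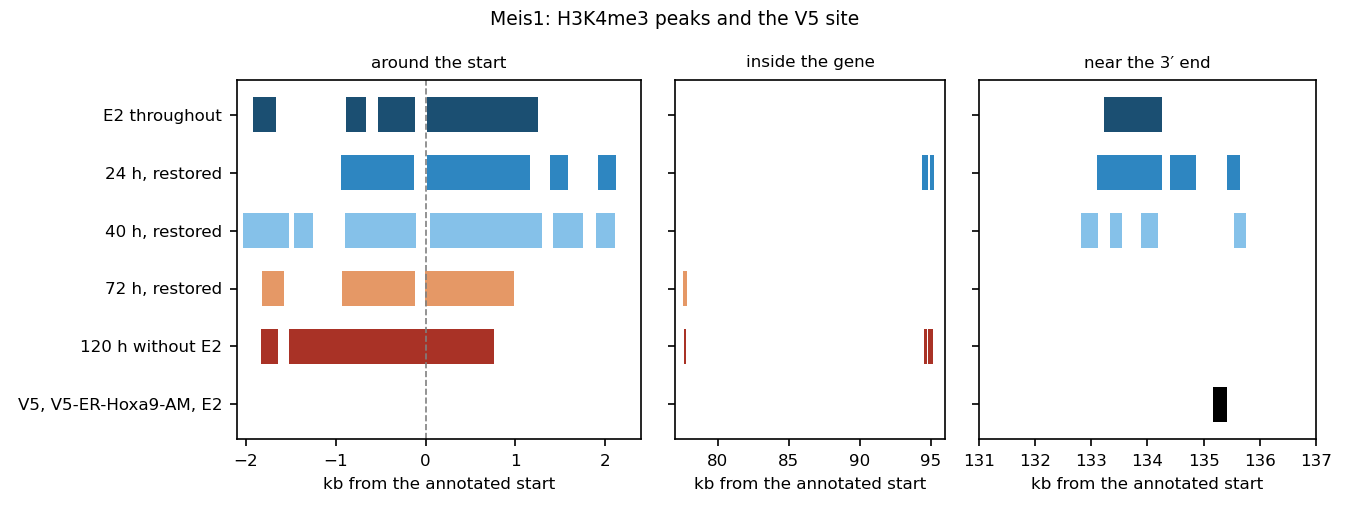
Bars show the Meis1 H3K4me3 peaks of the 5 lists and the V5 site, by distance in kb from the annotated start (horizontal axis, positive into the gene, dashed line at the start), in 3 separate stretches. Peaks near the 3′ end are present in E2 and at 24 and 40 h and absent at 72 and 120 h. Only the 72 h and 120 h lists cover the annotated start base, and all 5 cover the upper gene end, at 19019651.

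The peaks around the annotated Meis1 start, which lies inside the extent of the gene, differed in their gap. In E2 the start base lay in a gap of 132 bp between peaks, after 24 h the gap was 145 bp and after 40 h 158 bp. At 72 h a peak ended just past the start base and the next began further upstream, and after 120 h a single peak of 2283 bp spanned it. Within 500 bp of the start the covered length was 869 bp in E2, 856 bp after 24 h, 843 bp after 40 h, 887 bp after 72 h and 1001 bp after 120 h, which is all of that window. In Pbx2 the order was alike: its start base lay in gaps of 582 bp in E2, 569 bp after 24 h and 539 bp after 40 h, and under a peak at 72 and 120 h. Over 9023 annotated starts of protein-coding genes with a peak within 1 kb in all 5 lists, the start base was under a peak in 17.8% in E2, 28.3% after 24 h, 27.4% after 40 h, 44.3% after 72 h and 67.9% after 120 h. A start base outside peaks in E2 and under one after 120 h was thus not particular to Meis1 and Pbx2.

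A site of tagged HOXA9 lay inside Meis1 in 1 of the 5 site lists, that of V5 in V5-ER-Hoxa9-AM cells in E2. The site was 248 bp wide (chromosome 11, 18883548 to 18883795), and only 7.9% of the sites in that list were narrower (median 445 bp). It lay 3.1 kb inside the 3′ end, within the stretch of the element that had no H3K4me3 at 72 and 120 h. It lay 1 bp from the nearest H3K4me3 peak after 24 h, 126 bp after 40 h and 920 bp in E2, and 4596 and 5121 bp from the nearest at 72 and 120 h. At 72 and 120 h that nearest peak lay past the 3′ end of Meis1, outside the gene plus 1 kb. The site overlapped no H3K4me3 peak in any list. Neither list of V5-Hoxa9-AM cells held a site within 50 kb of Meis1, nor did the V5 list after 72 h or the AM list of V5-ER-Hoxa9-AM cells. It was among the 338 of 1417 sites (23.9%) of that list without a V5 site in V5-Hoxa9-AM cells. The H3K4me3 and V5 lists come from different cell lines.

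Meis2, which encodes a close relative of MEIS1 with roles in heart, limb and neural development, lies on chromosome 2 from 115861264 to 116067537 (206274 bp). It had neither H3K4me3 in the 5 lists nor a V5 or AM site within 50 kb. Meis3, another gene of the family (chromosome 7, 16174012 to 16186510, 12499 bp), had no H3K4me3 in the 5 lists either. A V5 site of V5-Hoxa9-AM cells lay within its 50 kb (16221928 to 16222155, 228 bp), but 35.4 kb outside the gene and inside another, Dhx34, with 3 genes nearer than Meis3. That site overlapped H3K4me3 in all 5 lists, by 20 bp in E2 and 77 to 103 bp in the others.

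Pknox1, which encodes the MEIS-related PBX partner also called PREP1, lies on chromosome 17 from 31564722 to 31607693 (42972 bp). Its peaks sat at the lower end of the gene only, with 816 bp in E2, 1234 bp after 24 h, 1358 bp after 40 h, 1373 bp after 72 h and 1875 bp after 120 h. E2 was the lowest and 120 h the highest, and the 40 and 72 h lists were nearly equal. With peaks within 1 kb joined, Pknox1 covered 816 bp in E2, 1234 bp after 24 h, 1602 bp after 40 h, 2335 bp after 72 h and 2315 bp after 120 h, so that 72 h was no longer near 40 h or below 120 h. The log2 ratio to E2 was 0.57 after 24 h, 0.70 after 40 h, 0.72 after 72 h and 1.15 (2.22-fold) after 120 h. Per total length of the list these were 0.13, 0.20, 0.11 and 0.44, none past 1.5-fold. The gap around the gene end shrank from 1189 bp in E2 to 962 bp after 72 h and 440 bp after 120 h, with 1194 and 1287 bp at 24 and 40 h. Only the gaps at 72 and 120 h are under the 1 kb limit for joining. The joined lengths thus include this gap at 72 and 120 h and not in the other lists. No V5 or AM list held a site within 50 kb of Pknox1.

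Pbx2 encodes a broadly expressed PBX protein and is the shortest gene of the 6 (chromosome 17, 34592259 to 34597400, 5142 bp). Its peak length was 777 bp in E2, 1376 bp after 24 h, 1445 bp after 40 h, 1733 bp after 72 h and 2046 bp after 120 h, with E2 again lowest and 120 h highest. The ratio to E2 on the log2 scale was 0.79, 0.85, 1.11 and 1.34 (2.53-fold) at 24, 40, 72 and 120 h, and per total length of the list 0.35, 0.35, 0.50 and 0.62. The last is past 1.5-fold, so that 120 h against E2 was the only comparison of Pbx2 that passed on both of these scales. In every list the peak upstream of the start overlapped the end of the neighbouring gene Gpsm3, 505 bp from Pbx2, and after 120 h it was 1992 bp wide. The upstream part cannot be assigned to Pbx2 alone. Ager begins 60 bp past the other end of Pbx2. When peaks within 1 kb of each other were joined, Pbx2 covered 1712 bp in E2, 2244 bp after 24 h, 1984 bp after 40 h, 1975 bp after 72 h and 2373 bp after 120 h. The log2 ratio after 120 h was then 0.46, no longer past 1.5-fold.

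**Figure D3:**
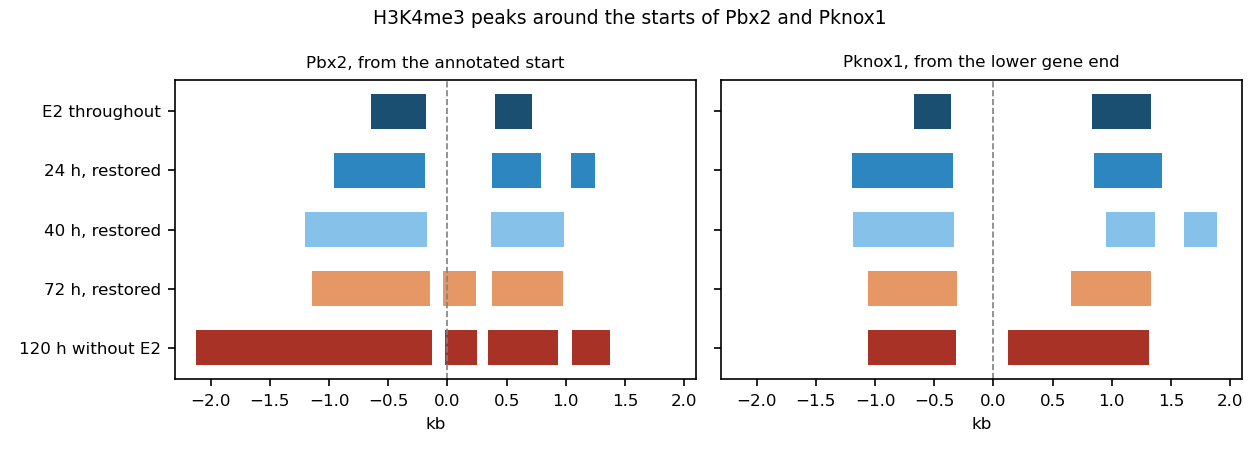
Bars show H3K4me3 peaks by distance in kb from the annotated start of Pbx2 (left) and from the lower end of Pknox1 (right), 1 row per list, with a dashed line at 0. Peaks flank the line in E2, and after 120 h the Pbx2 start is covered and the Pknox1 gap is down to 440 bp.

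A V5 site of V5-Hoxa9-AM cells lay within 50 kb of Pbx2 (34639634 to 34639936, 303 bp), but 42.2 kb outside the gene, with 9 genes nearer, the nearest being Ppt2 at 1612 bp. This site touched H3K4me3 in E2 by 1 bp and overlapped it by 77 bp after 24 h and 33 bp after 120 h, with gaps of 87 bp after 40 h and 61 bp after 72 h. No other site list had a site within 50 kb of Pbx2.

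Pbx3, the PBX gene most often studied with HOXA9 in leukaemia, lies on chromosome 2 from 34171457 to 34372045 (200589 bp). It had 1912 bp of H3K4me3 in E2, 2644 bp after 24 h, 3044 bp after 40 h, 2930 bp after 72 h and 2908 bp after 120 h. E2 was the lowest, and the 40, 72 and 120 h values lay close together. The log2 ratio to E2 was 0.46, 0.66, 0.60 and 0.59 at 24, 40, 72 and 120 h, the last just past the 1.5-fold line (1.51-fold). Per total length of the list the ratio was 0.01, 0.14, -0.02 and -0.13, so its sign at 72 and 120 h turned, and after 120 h it was 0.19 within the gene body alone and 0.55 with peaks within 1 kb joined, both short of 1.5-fold.

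Pbx3 had 3 elements, of which 2 were in every list. At the upper end of the gene (34370298 to 34372762) peaks covered 1038 bp in E2, 1224 bp after 24 h, 1337 bp after 40 h, 1223 bp after 72 h and 1996 bp after 120 h. The extra length after 120 h was largely a peak of 714 bp just outside the gene, from 34372049, that the other lists lacked. An element 11396 bp inside the gene (34359465 to 34360649) was similar in all lists, with 874 bp in E2, 770 bp after 24 h, 1036 bp after 40 h, 1047 bp after 72 h and 912 bp after 120 h.

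The third Pbx3 element appeared only in the restored conditions. It lay deep in the gene (34249519 to 34250192), 78062 bp from the lower end, and was covered over 650 bp after 24 h, 671 bp after 40 h and 660 bp after 72 h. In E2 and after 120 h it had 0 bp. The 3 peaks were close in width, and each was wider than the median of its list. Over the genome 138 of 16293 elements (0.847%) had peaks in these 3 lists alone, whereas 60.5% of elements were in all 5 lists.

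Pbx3 was the only gene of the 6 with tagged HOXA9 sites from V5-Hoxa9-AM cells inside its body. It is 200589 bp long, and the share of all genes with a site inside was not computed. The V5 list held 2 and the AM list 3. A site of 585 bp (34359666 to 34360250) was in both lists with the same edges and lay within the element 11.8 kb from the upper end. All 585 bp were under H3K4me3 in E2 and after 40 h, 577 bp after 120 h, 519 bp after 72 h and 329 bp after 24 h. The next site, 83.2 kb from the upper end (34288554 to 34288822, 269 bp) was also in both lists with the same edges, but far from H3K4me3, at least 38361 bp from the nearest peak. Narrower sites made up 7.18% of the AM list and 36.5% of the V5 list. The last, 136.2 kb from the upper end (34235586 to 34235796, 211 bp), was in the AM list only. It was among the 578 of 6773 AM sites (8.53%) without a V5 site in these cells. Only 1.24% of the sites in the AM list were narrower (median 434 bp). V5-ER-Hoxa9-AM cells had no site within 50 kb of Pbx3 in either V5 list or in the AM list.

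**Figure D4:**
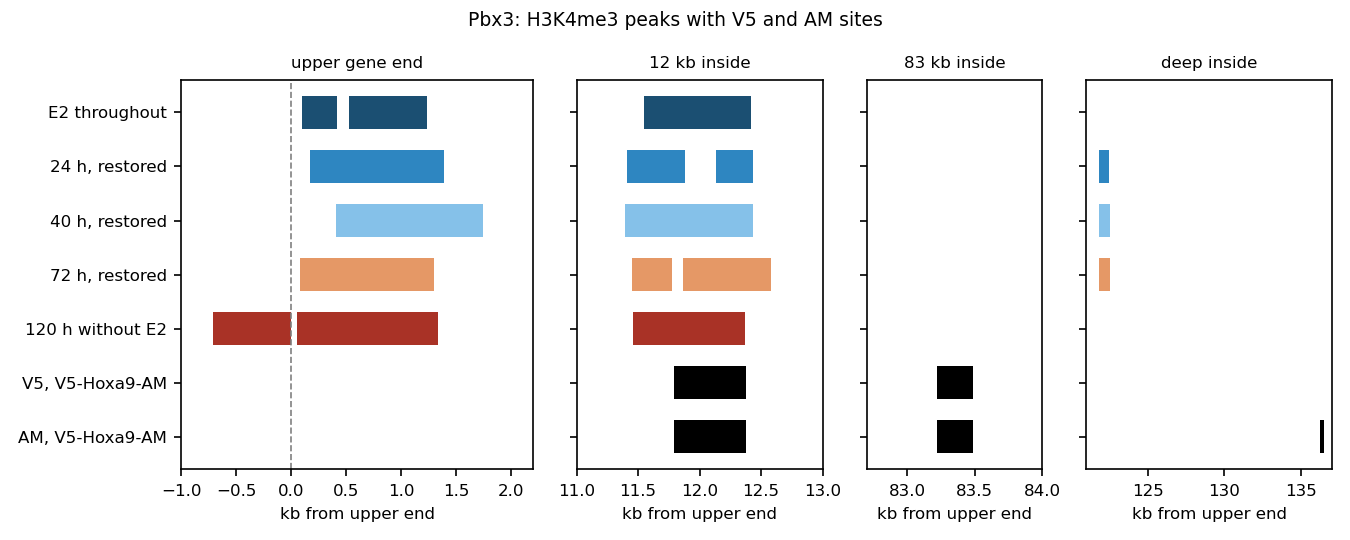
Bars show Pbx3 H3K4me3 peaks of the 5 lists and V5 and AM sites of V5-Hoxa9-AM cells, by distance in kb from the upper end of the gene (positive into the gene, dashed line at the end), in 4 stretches. Of the 2 sites in both the V5 and AM lists, 1 lies on the element near 12 kb and the other, 83.2 kb inside, is away from H3K4me3, and the deepest peaks are in the 24, 40 and 72 h lists only.

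Counted over the 6 genes, a V5 site of V5-Hoxa9-AM cells lay within 50 kb of 3 (Meis3, Pbx2 and Pbx3), against 55.8% of all genes. Its AM list had a site near 1 (Pbx3), against 36.4%. The V5 list of V5-ER-Hoxa9-AM cells in E2 had a site near 1 (Meis1), against 8.41%, and its lists for V5 after 72 h and AM in E2 had none, against 2.6% and 1.56%. A longer gene has a wider window, and the 6 genes run from 5142 to 206274 bp. Within 10 kb, V5 sites of V5-Hoxa9-AM cells were near Pbx3 alone, a gene of 200589 bp. The share of all genes was not computed at 10 kb.

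Against E2, 2 of the 4 genes with peaks were at least 1.5-fold higher after 24 h (Meis1 and Pbx2), beside 33.1% of the 11063 genes marked in at least 1 of the 2 lists. After 40 and 72 h the genes past 1.5-fold were Pbx2, Pbx3 and Pknox1, beside 35.9% and 46.8% of all genes. The same 3 passed after 120 h, where 50.5% of all genes did. None of the 4 was 1.5-fold lower, and few genes were: 1.96% after 24 h, 1.46% after 40 h, 1.54% after 72 h and 2.29% after 120 h. With peaks within 1 kb joined, a setting added after the values were seen, 1 of the 4 was higher at each time: Meis1 after 24 h, and Pknox1 after 40, 72 and 120 h. The share of all genes was not computed with joined peaks, so these calls cannot be set beside the shares above. The median log2 ratio after 120 h was 0.87 over the 4 genes and 0.59 over 11591 genes, so that the majority of genes shared the direction. Between 72 h and 120 h none of the 4 passed, with 7.14% of all genes higher and 16.0% lower after 72 h. Per total length of the list, 24.9% of all genes were higher and 21.3% lower after 120 h, the median moved from 0.59 to -0.11, and of the 4 genes Pbx2 was higher and Meis1 lower. At 24 h the split on that scale was 16.7% higher and 8.33% lower, and none of the 4 was past 1.5-fold. At 40 h it was 16% and 6.7%, again with none of the 4. At 72 h it was 19.9% and 6.92%, with Meis1 lower.

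**Figure D5:**
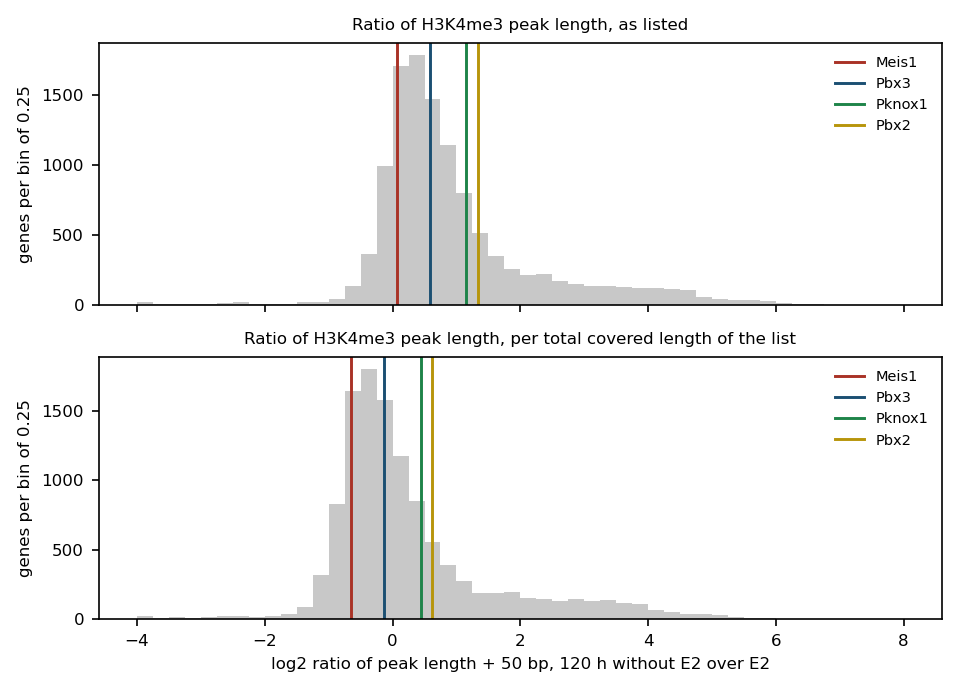
Grey bars count genes by the log2 ratio of H3K4me3 peak length plus 50 bp after 120 h over E2 (horizontal axis), as listed (top) and divided by the total length of each list (bottom); ratios beyond the axis were put in the end bins. Lines mark Meis1 at 0.07 and -0.65, Pbx3 at 0.59 and -0.13, Pknox1 at 1.15 and 0.44, and Pbx2 at 1.34 and 0.62.

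In one respect the 4 genes were alike: around the start or the gene end with peaks, the length covered within 500 bp was greatest after 120 h. It was 1001 bp for Meis1, 794 bp for Pbx2, 941 bp for Pbx3 and 561 bp for Pknox1, after 869, 419, 320 and 143 bp in E2. The same held for 65.6% of the 9023 starts, whose median went from 431 bp in E2 to 797 bp after 120 h. Pbx3 and Pknox1 have no annotated start among these and were measured at the gene end that held peaks. For them this share is not a like measure.

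The genes with the most similar H3K4me3 lengths over the 5 lists were sought by the root mean square difference in log2 length. For Meis1 these were Trappc9 (0.109), Rapgef2 (0.234) and Rbpms (0.237). Trappc9 had 3168, 4578, 4607, 2237 and 3164 bp in E2 and at 24, 40, 72 and 120 h. Only 4 genes lay within 0.25 of Meis1, whereas 307 lay that close to Pbx2, 332 to Pbx3 and 508 to Pknox1. The nearest were Cep43 for Pbx2 (0.031), H13 for Pbx3 (0.042) and Deaf1 for Pknox1 (0.032).

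Other TALE homeobox genes were also read. Pbx4 had 638, 718, 607, 550 and 543 bp from E2 to 120 h. The TGF-beta-induced factor genes Tgif1 and Tgif2 kept H3K4me3 in all 5 lists, with 5811 and 932 bp in E2 and 6418 and 1263 bp after 120 h. Mkx had 588, 397 and 273 bp at 24, 40 and 72 h and 0 bp in E2 and after 120 h, and so had peaks in the lists that held the third element of Pbx3. Pknox2 and the 6 Iroquois genes (Irx1 to Irx6) had no peak. After 120 h the log2 ratio to E2 was -0.21 for Pbx4, 0.14 for Tgif1 and 0.42 for Tgif2, none past 1.5-fold, and per total length of the list it was -0.88, -0.59 and -0.29, so that Pbx4 and Tgif1 were lower on that scale. Sites of V5-Hoxa9-AM cells, V5 and AM, lay within 50 kb of Tgif1, Tgif2, Pbx4 and Pknox2, and those of V5-ER-Hoxa9-AM cells near none of the genes named here.

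Genes known as targets of HOXA9 and MEIS1 in leukaemia were all marked. These were 14 of 14 in every list, beside 47.1% to 53.2% of all genes. At 120 h, 3 were at least 1.5-fold higher and 5 lower than in E2, with a median log2 ratio of -0.43, where 50.5% of all genes were higher and 2.29% lower. Kit, Cd34, Flt3 and Myb are also among the myeloid progenitor markers counted above, so the counts for targets and markers share genes. Among the lower targets were Cd34, a progenitor surface protein gene (4628 bp in E2 and 1053 bp after 120 h, -2.08), and Trib2, a pseudokinase gene (2345 and 602 bp, -1.88). The higher ones included Lmo2, a transcriptional adaptor gene (1277 and 2693 bp, 1.05), and Syk, a tyrosine kinase gene (2131 and 3898 bp, 0.86). Per total length of the list 10 were lower and none higher, where 21.3% of all genes were lower and 24.9% higher. V5 sites of V5-ER-Hoxa9-AM cells in E2 lay within 50 kb of 7 of the 14 (Cd34, Cdk6, Flt3, Myb, Syk, Mef2c and Erg), beside 8.41% of all genes and 1 of the 6 cofactor genes. After 72 h they lay near Cdk6, Myb and Mef2c, beside 2.6% of all genes. In V5-Hoxa9-AM cells, V5 sites lay near 11 of the 14 and AM sites near 10, beside 55.8% and 36.4% of all genes. The 14 were listed as known targets, and gene length was not taken into account in these counts.

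Of 9 partner factors of HOXA9 or PBX, 7 had H3K4me3 in E2 (47.1% of all genes). All 9 had it after 24, 40, 72 and 120 h (50.5% to 53.2% of all genes). At 120 h, 6 were at least 1.5-fold higher and none lower (median log2 ratio 1.08), and per total length of the list 3 were higher and 2 lower. Over all genes the shares were 50.5% higher and 2.29% lower, and 24.9% and 21.3% per total length of the list, so the factors' counts of higher genes lie near those of all genes. Pbxip1, which encodes a PBX-interacting protein, had 0 bp in E2, 724 bp after 24 h, 259 bp after 40 h, 432 bp after 72 h and 1115 bp after 120 h. Ets1, an ETS-family factor gene, had 0, 439, 365, 541 and 1081 bp. V5 sites of V5-ER-Hoxa9-AM cells in E2 lay within 50 kb of Gfi1, Cebpa and Runx1, 3 of 9 beside 8.41% of all genes, and after 72 h near Gfi1 alone. In V5-Hoxa9-AM cells, V5 sites and AM sites each lay near all 9, beside 55.8% and 36.4% of all genes. The Hoxa9 gene itself with 1 kb around it, where the construct's own copy cannot be told apart, had 1180, 1140, 1013, 1156 and 1281 bp in E2 and at 24, 40, 72 and 120 h.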

How the data were processed

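Per the labels, ChIP-seq was done with 500 ug of chromatin for H3K4me3 and 30 ug for V5 and AM. The authors deposited peak lists that give a chromosome, start and end alone, and the values are coordinates. Bowtie2 2.0, BWA and MACS2 2.0 are listed, with builds mm9 and mm10, per the submitters' processing notes. The tool behind each file, its threshold, use of inputs and depth are not given in the sources used here, and lists can differ in how much was called. Of 30 samples, 10 lists were used (5 H3K4me3, 3 V5, 2 AM), and groups came from the sample titles. V5 and AM lists were taken as mm10, since 10.6% to 24.4% of their sites overlapped 120 h H3K4me3 peaks and 1.41% to 1.98% did after a shift of 100 kb. H3K27ac and H3K27me3 lists were read only to check their build. They run to 196957583 or beyond on chromosome 1, where the last GRCm38 gene ends at 195291439, and 3.77% to 5.69% of their peaks overlapped 120 h H3K4me3, against 2.16% to 4.42% after the shift. They were taken as not on GRCm38 and not used. V5 and AM lists share region edges exactly, so the step that made the common regions, which the sources used here do not describe, limits what their widths and overlaps can show.

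Covered length was the bp of the union of peaks within the gene plus 1 kb (RefSeq GRCm38.p6). Ratios used log2 with a pseudocount of 50 bp and a line of 1.5-fold. Sites counted within 50 kb and overlap meant 1 bp. The coverage code was tested on simulated data. Python 3.11.15, numpy 2.4.6, pandas 2.3.3 and matplotlib 3.10.9 were used. The 6 genes and all gene lists were chosen with earlier results of these data known. Named genes were the 6, the nearest in H3K4me3 length, and from each list those past 1.5-fold (the largest 2 per direction where over 4) or with a V5-ER-Hoxa9-AM site. The comparison of start bases and gaps, the naming of Pbx4, Tgif1, Tgif2, Mkx and Pknox2, and the elements and their patterns were chosen after the values were seen. The alternatives were other windows, peak widths, pseudocounts, thresholds, scaling and distances. 1 gene of the list of other TALE homeobox genes is not reported here, and no count over that list is given.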

Additional observations from a re-analysis of the deposited data

How the results depend on the processing

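Of the counts over the 6 genes recomputed under other settings, 106 stayed within 1.5 times of the reported count and 34 moved. Genes with H3K4me3 numbered 4 in each list under other windows around the gene or its ends, with at least 200 bp covered or at equal list length, and with peaks above the median width 3 in E2 and 4 in the others. With 1 kb around the annotated start they were 2 in each, since only 4 genes have an entry. Apart from the scaling per total length of the list, shares of all genes were not computed under these settings. Genes at least 1.5-fold above E2 fell to 1 at 24 h, 1 at 40 h and 2 at 72 h around the gene ends, but rose to 4 at 120 h. With the gene plus 2.5 kb they rose to 3 at 24 h and 4 at 40 h. They fell to 0 at 24 h with lists of equal length (17497 peaks). With peaks within 1 kb joined, added after the values were seen, they were 1 in each comparison (24, 40, 72 and 120 h). With a line of 2-fold they were 0 at 24 and 40 h and 1 at 72 h. Per total length of the list they were 0 at 24, 40 and 72 h and 1 at 120 h, and 1 gene was lower at 72 h and 1 at 120 h; with equal lists 1 was lower at 72 h. At 120 h, Pbx3 was -0.13 per total length of the list, 0.19 in the gene body alone and 0.56 with a pseudocount of 200 bp, Pknox1 0.44 per total length, and Meis1 0.93 at the gene ends and -0.29 in the gene body. With joined peaks Pbx2 was 0.46, Pbx3 0.55 and Meis1 -0.27. The cause was not tested.

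For sites, shares of all genes were not computed under other settings. Genes near a V5 site of V5-Hoxa9-AM cells were 1 within 10 kb, 1 within the gene, 5 within 100 kb, 1 with sites above the median width and 0 with equal lists (258 sites). For V5 in V5-ER-Hoxa9-AM cells in E2 the count was 2 within 100 kb and 0 with wide sites or equal lists, and at 72 h 1 within 100 kb. For AM it was 2 within 100 kb and 0 with equal lists in V5-Hoxa9-AM cells, and 1 within 100 kb in V5-ER-Hoxa9-AM cells. The Pbx3 element of the restored lists kept its length with wide peaks and with equal lists. At 40 h the Meis1 element near the 3′ end had 622 bp with equal lists and 0 bp with wide peaks. No list has depth, so weak peaks just under a threshold cannot be told from absent ones.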
